A study of Rattus norvegicus with 8 samples.

Results

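The genes of the corticosteroid signaling machinery were examined in the striatum of rats that had self-administered methamphetamine (METH). They were chosen by name from the gene count data and comprise 10 of the 17337 genes listed, namely the receptor genes Nr3c1 and Nr3c2, the chaperone and co-chaperone genes Fkbp4, Hsp90ab1, Stip1 and Ptges3, the steroid-converting enzyme gene Hsd11b1, and the coregulator genes Ncoa1, Ncoa2 and Ncor1. All 10 were listed in the data, and all 10 were among the 12014 genes that passed the filter on low counts. The 10 genes and the lists used below were chosen with earlier results of these data known. Poly(A)-selected messenger RNA came from the striatum of 8 wild-type male Sprague-Dawley rats. In the METH group, 4 rats pressed a lever for intravenous METH at 0.05 mg/kg per infusion in sessions of 2 h per day for 16 days, and in the saline group 4 rats received saline on the same schedule. Rats of both groups went through the same food training and jugular catheter surgery, were kept for sampling because their lever pressing was stable, and were anesthetized with ketamine and xylazine before the brain was taken. The interval between the last session and sampling is not given in the sources used here. A stable response was a condition for being sampled, so the groups are not random samples of trained rats.

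Corticosterone, the main glucocorticoid of the rat, crosses into cells and binds the glucocorticoid receptor and, with higher affinity, the mineralocorticoid receptor. Without hormone these receptors sit in the cytoplasm in a complex with Hsp90 and its co-chaperones, which fold the receptor into a form that can bind hormone and help to carry it to the nucleus. On DNA the receptors recruit coactivators such as the steroid receptor coactivators, or corepressors such as the nuclear receptor corepressor, and so raise or lower the transcription of target genes. The striatum is rich in glucocorticoid receptor, and glucocorticoids are known to modulate dopamine signaling there.

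No member of the 10 was called different between METH and saline rats. A gene was called when the false discovery rate (FDR, the edgeR quasi-likelihood test with Benjamini-Hochberg adjustment over all genes tested) was below 0.05 and the mean log2 CPM above 1, where CPM is the count scaled to a library of 1000000 counts. This rule called 62 of the genes tested, or 0.516%, with 54 (0.449%) of them at a higher and 8 (0.0666%) at a lower level after METH. The DESeq2 Wald test called 2 of the members, Nr3c1 and Fkbp4, and the likelihood ratio test of edgeR called Fkbp4 alone. By the looser criterion of an unadjusted p below 0.05, Nr3c1 and Nr3c2 (2 of the 10 genes) were lower and Fkbp4 and Stip1 (another 2) were higher after METH. Among all genes tested, 4.88% were lower and 6.26% were higher by the same criterion. The same 4 genes were those in which the groups did not overlap, with every METH rat below every saline rat for both receptor genes and every METH rat above every saline rat for both co-chaperone genes. Among all genes tested, 2.65% lay entirely below and 3.75% entirely above in METH rats. By mean, 6 of the 10 genes were lower and 4 were higher in METH rats, and their median log2 fold change was -0.12, beside -0.01 for all genes tested. The plot of log2 fold changes against mean expression shows all 10 genes within the cloud of genes that were not called.

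**Figure D1:**
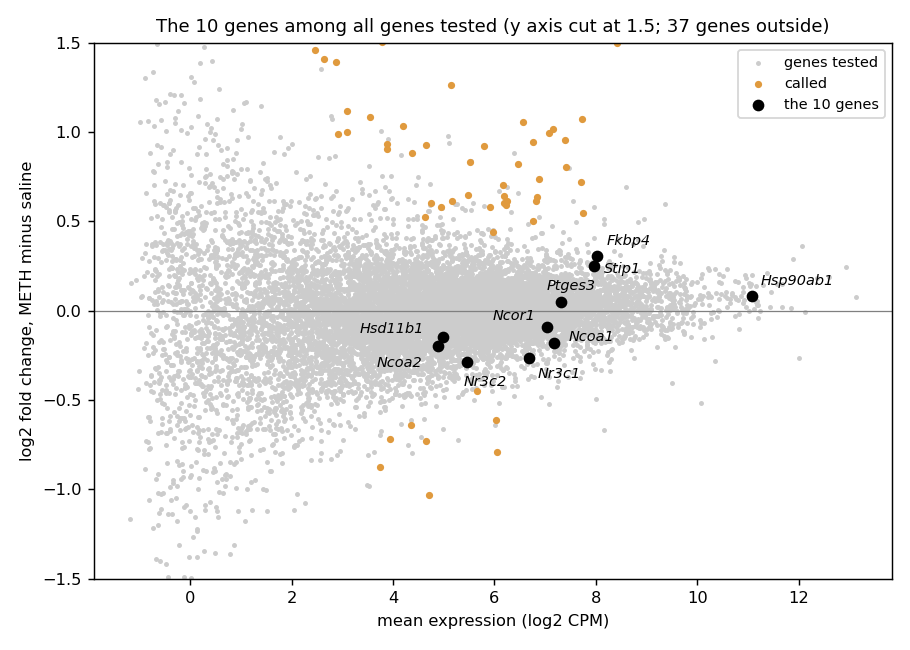
Log2 fold change (METH minus saline, y axis) against mean expression (log2 CPM, x axis) for each gene tested. Grey points are genes tested, orange points are called genes and black points are the 10 genes; the y axis ends at 1.5 in both directions, which leaves 37 genes outside. Fkbp4 and Stip1 lie above the zero line at 0.31 and 0.25, and Nr3c1 and Nr3c2 lie below it at -0.27 and -0.29.

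The study took its interest in Nr3c1 from a microRNA, miR-183-5p, of which Nr3c1 was a predicted target. It reported this microRNA as higher in the striatum after METH self-administration. It also reported that a mimic of the microRNA lowered Nr3c1 in human embryonic kidney cells and that an inhibitor raised it. The mature microRNA is shown with its seed, bases 2 to 8, in capitals, because the seed is the stretch that pairs with a target messenger RNA. The sequence is that of RefSeq at chr4:59756106-59756127 of GRCr8, minus strand, 22 bases long, and is the same as that of the mimic used in the study.
rno-miR-183-5p: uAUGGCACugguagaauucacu
Mature microRNAs carry no poly(A) tail and were not measured in these libraries, and its level was not analysed here.

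Fkbp4 and Stip1 were the 2 members higher in every METH rat, and both belong to the Hsp90 chaperone system, many genes of which are induced by heat shock factors. Their promoter windows, from 250 bases before to 50 bases after the transcription start, are shown with the paired heat shock unit in capitals. The searched letters were GAANNTTC and TTCNNGAA, each of which reads the same on both strands. Both sequences are from RefSeq and lie on the minus strand of GRCr8, Fkbp4 at chr4:163397869-163398168 and Stip1 at chr1:213657605-213657904.
Fkbp4: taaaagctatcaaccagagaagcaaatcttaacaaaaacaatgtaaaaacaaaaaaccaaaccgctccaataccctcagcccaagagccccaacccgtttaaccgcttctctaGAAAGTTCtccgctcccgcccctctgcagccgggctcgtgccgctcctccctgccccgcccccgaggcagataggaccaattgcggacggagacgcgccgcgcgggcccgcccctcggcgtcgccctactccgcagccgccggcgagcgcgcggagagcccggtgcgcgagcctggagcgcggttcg
Stip1: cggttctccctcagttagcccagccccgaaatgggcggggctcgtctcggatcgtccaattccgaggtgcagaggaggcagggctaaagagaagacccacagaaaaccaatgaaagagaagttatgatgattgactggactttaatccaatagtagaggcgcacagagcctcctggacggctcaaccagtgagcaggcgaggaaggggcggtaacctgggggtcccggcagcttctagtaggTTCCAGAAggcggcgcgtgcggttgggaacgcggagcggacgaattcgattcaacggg
The unit in the Fkbp4 window began 137 bases before the start and that in the Stip1 window 8 bases before it. Windows were found for 7 of the 10 members, Nr3c1 with a pair of windows, and the unit was present in 2 of these 8 windows. It was present in 15.9% of all 33469 windows and in 11.2% of the 9545 windows of genes tested here. A palindromic steroid response element, AGAACA and TGTTCT with 3 bases between them, was found in 5 of all windows and in none of the members' windows. These are matches of letters in a short window and say nothing about factor binding. The part of heat shock factors in the levels of Fkbp4 and Stip1 was not tested. No window was matched for Nr3c2, Hsd11b1 or Ncoa2.

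The libraries were of similar depth, with total counts from 18135939 to 20832550 in saline rats and from 18520038 to 21211920 in METH rats. Scaling factors by the TMM method, which corrects for library composition, lay between 0.956 and 1.018, and 3 counts corresponded to 0.142 to 0.169 CPM. Counting noise did not account for the differences between rats of one group (10.4 to 28.8 for the chi-square divided by its degrees of freedom), so each rat was used as a replicate. METH 3 stood apart, with the lowest scaling factor, 13142 genes with counts against 13333 to 13410 in the other rats, and 6.06% of counts in its top 10 genes against 4.60% to 5.43%. Markers of striatal projection neurons were abundant in each rat, with the 10 markers summing to 14472 to 15465 CPM in saline rats and 15258 to 19281 CPM in METH rats, METH 3 being the highest. None of these 10 markers was called, and 2 (Drd2 and Ppp1r1b) were higher at an unadjusted p below 0.05, beside 6.26% of all genes tested. Saline 1 held 1198 counts of the cortical marker Slc17a7, against 64 to 256 in the other rats. In bulk tissue, fewer cells of a type and less RNA per cell cannot be told apart.

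Both corticosteroid receptor transcripts were lower in METH rats, to 0.831 and 0.818 of the saline level, and neither passed the correction over all genes in the edgeR quasi-likelihood test. Nr3c1 encodes the glucocorticoid receptor, the ligand-activated transcription factor that carries the stress response to corticosterone. Its level in the saline rats was 106.1, 113.1, 112.9 and 115.7 CPM (rats 1 to 4), and in the METH rats 100.6, 94.4, 87.4 and 89.8 CPM. Every METH rat lay below every saline rat, and the gap was narrowest between METH 1 and saline 1. The means were 112.0 ± 4.11 CPM in saline rats and 93.1 ± 5.80 CPM in METH rats (SD, n = 4 each), a ratio of 0.831 (95% interval 0.745 to 0.927). This was a log2 fold change of -0.27 (SE 0.07), with an FDR of 0.180 in the edgeR quasi-likelihood test. The exact permutation test over the 70 labellings gave a two-sided p of 0.0286, the smallest that 4 rats against 4 allow. By unadjusted p, Nr3c1 ranked 191 among the genes tested. The study chose Nr3c1 for follow-up from genes that were lower in these same libraries, so the direction of Nr3c1 here is not independent of that choice. It counted Nr3c1 among its differentially expressed genes, whereas Nr3c1 was not called by the rule used here. The methods of the study name no test for messenger RNA, so the difference between both calls was not traced. The study also reported lower Nr3c1 by qRT-PCR in the striatum after METH self-administration. It reported the same in other rats after repeated METH injections, and no change after a single injection. Those qRT-PCR values were not analysed here.

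Nr3c2 encodes the mineralocorticoid receptor, which in the brain binds corticosterone as well as aldosterone. Its levels were 45.4, 49.2, 52.5 and 46.8 CPM in the saline rats and 40.6, 41.7, 32.2 and 44.2 CPM in the METH rats. The groups again did not overlap, although METH 4 lay close to saline 1, and METH 3 was well below the other METH rats. The means were 48.5 ± 3.09 and 39.7 ± 5.17 CPM (SD, n = 4 each), a ratio of 0.818 (95% interval 0.702 to 0.954). On the log2 scale the difference was -0.29 (SE 0.10), and its FDR was 0.319 in the edgeR quasi-likelihood test (exact permutation p = 0.0286, two-sided). Without METH 3 the log2 fold change of Nr3c2 was -0.20 and that of Nr3c1 was -0.24, and both had an unadjusted p below 0.05.

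The balance between both receptor transcripts was compared within each rat, since a ratio within a library does not depend on library scaling. The log2 ratio of Nr3c2 to Nr3c1 counts was -1.21 ± 0.08 in saline rats and -1.24 ± 0.18 in METH rats (SD, n = 4 each). The difference, -0.03, was smaller than the spread in either group (exact permutation test, two-sided p = 0.771, and 0.886 after Benjamini-Hochberg adjustment over the 4 ratios tested). The METH rats ranged from -1.44 in METH 3 to -1.02 in METH 4 and so spanned the whole saline range of -1.30 to -1.10. The sign of the difference turned without saline 3 (0.0057) and without METH 3 (0.0380), so no direction can be given for the balance.

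Hsd11b1 encodes 11-beta-hydroxysteroid dehydrogenase type 1, which regenerates active corticosterone from its inert 11-keto form inside cells. It was measured at 32.2, 39.8, 29.2 and 31.1 CPM in the saline rats and at 23.4, 26.5, 29.2 and 40.6 CPM in the METH rats. The groups overlapped widely, with both the lowest and the highest of the 8 values in METH rats. Its log2 fold change was -0.14 (SE 0.16, 95% interval -0.48 to 0.19), with an FDR of 0.753 in the edgeR quasi-likelihood test. The interval includes both a loss of about the size seen for the receptors and a gain of up to 1.14 times, so neither could be told from no difference. The value depended on single rats, from -0.04 without saline 2 or without METH 1 to -0.33 without METH 4, where its unadjusted p fell below 0.05. Saline 2 and METH 4, the highest rats of each group for Hsd11b1, also held the most counts of the hypothalamic neuropeptide gene Avp, 564 and 348 against 0 to 35 in the other rats. METH 4 held 945 counts of Oxt, another such gene, against 1 to 75. These genes were chosen after their values were seen, and the part of such tissue in the Hsd11b1 values was not tested.

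**Figure D2:**
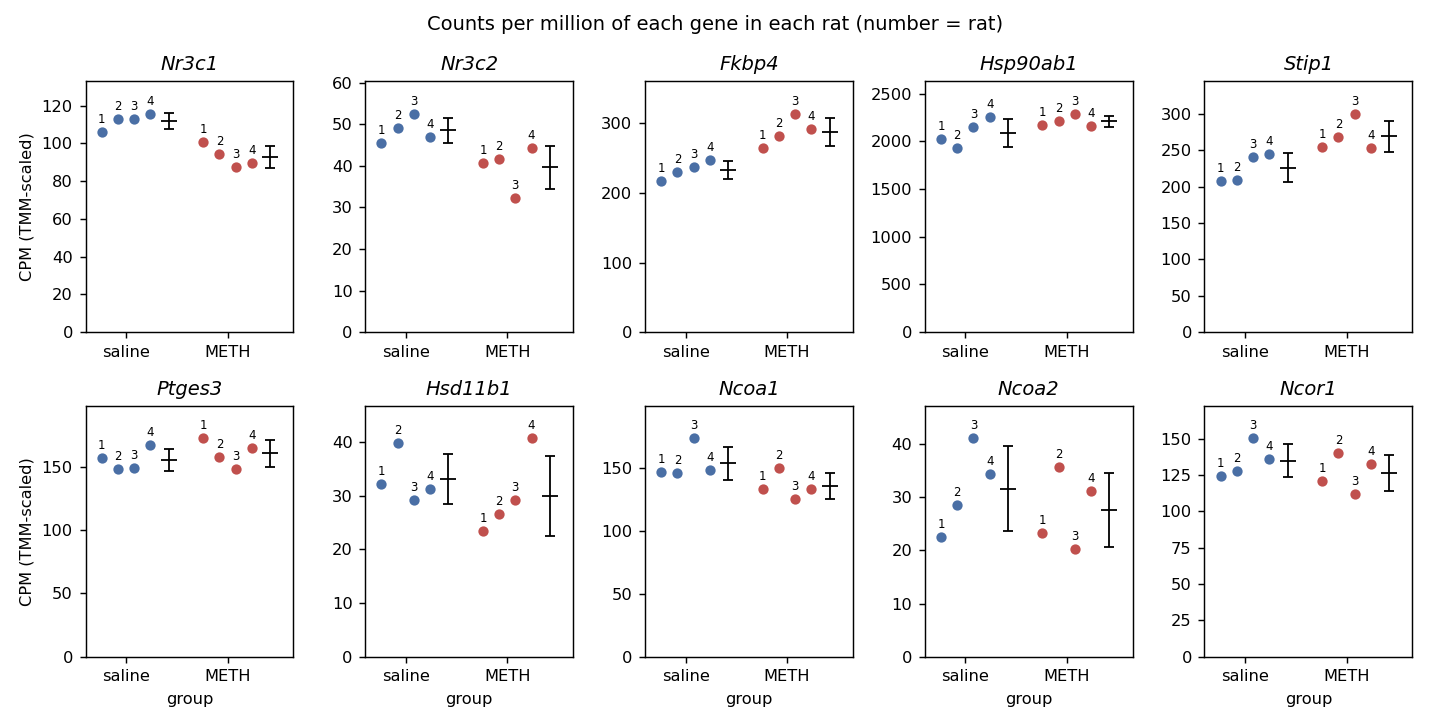
CPM (y axis, from 0, a different range for each gene) of the 10 genes in each of the 8 rats. Blue points are saline rats and red points are METH rats with the rat number above each point, and the bar beside each group gives the mean and SD (n = 4). The points of the 2 groups do not overlap for Nr3c1, Nr3c2, Fkbp4 and Stip1, and overlap for the other 6 genes.

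Of the 4 chaperone and co-chaperone genes of the receptor complex, all had a higher mean in METH rats, and 2 of them, Fkbp4 and Stip1, did not overlap between the groups. Fkbp4 encodes FKBP52, an immunophilin co-chaperone that binds Hsp90 in the receptor complex and links it to the dynein motor for transport to the nucleus. Its levels were 218.0, 229.7, 237.8 and 246.9 CPM in the saline rats and 265.2, 281.6, 313.9 and 292.0 CPM in the METH rats. Each METH rat lay above the highest saline rat, with METH 3 the highest and METH 1 the lowest of the METH rats. The means were 233.1 ± 12.3 and 288.2 ± 20.4 CPM (SD, n = 4 each), a ratio of 1.24 (95% interval 1.11 to 1.38). Of the members, Fkbp4 had the lowest unadjusted p, rank 120 among the genes tested. Its log2 fold change of 0.31 (SE 0.08) had an FDR of 0.126 in the edgeR quasi-likelihood test and an exact permutation p of 0.0286 (two-sided).

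Stip1 encodes HOP, the adaptor that holds Hsp70 and Hsp90 together while a receptor is handed from one to the other. Its levels were 208.4, 209.5, 240.5 and 245.3 CPM in the saline rats and 254.8, 268.2, 300.2 and 253.2 CPM in the METH rats. The groups did not overlap, but METH 4 and METH 1 lay only just above saline 4. The means were 225.9 ± 19.7 and 269.1 ± 21.8 CPM (SD, n = 4 each), a ratio of 1.19 (95% interval 1.05 to 1.35). Its log2 fold change was 0.25 (SE 0.08, FDR = 0.295 in the edgeR quasi-likelihood test), and the exact permutation p was 0.0286 (two-sided). Without METH 3 the log2 fold change was 0.20 for Stip1 and 0.26 for Fkbp4.

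Hsp90ab1 encodes the constitutive cytosolic Hsp90 beta, the core chaperone of the complex. It was at 2020, 1930, 2153 and 2253 CPM in the saline rats and at 2177, 2210, 2290 and 2162 CPM in the METH rats. The METH values fell within a narrow span that overlapped the upper part of the saline range. For Hsp90ab1 the log2 fold change was 0.08 (SE 0.07, 95% interval -0.06 to 0.22), with an FDR of 0.663 in the edgeR quasi-likelihood test. Ptges3 encodes p23, which binds the closed, ATP-bound form of Hsp90 and stabilizes the receptor in its hormone-binding state. It was at 156.9, 148.2, 148.9 and 166.9 CPM in the saline rats and at 172.2, 157.5, 147.7 and 164.3 CPM in the METH rats. These values were intermixed, and the lowest and the highest were both in METH rats. For Ptges3 the log2 fold change was 0.05 (SE 0.08, 95% interval -0.12 to 0.21), with an FDR of 0.839 in the edgeR quasi-likelihood test. With 1 rat left out, Hsp90ab1 ranged from 0.05 without saline 2 to 0.12 without saline 4, and Ptges3 from 0.01 without METH 1 to 0.09 without METH 3. The upper ends of the intervals with all rats were 1.17 times the saline level for Hsp90ab1 and 1.16 times for Ptges3.

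**Figure D3:**
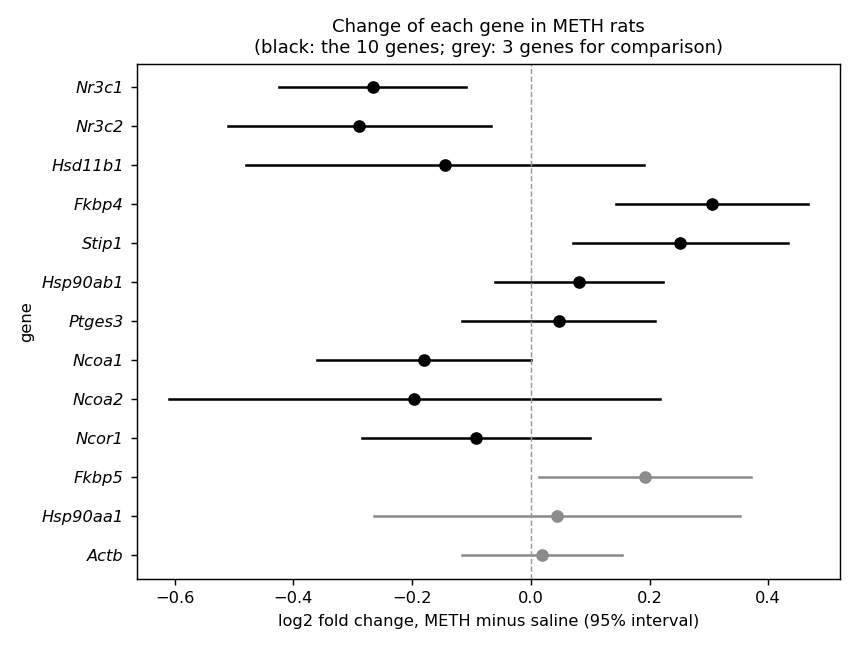
Log2 fold change (METH minus saline, x axis) with its 95% interval for each gene. Black points are the 10 genes, ordered by role, and grey points are Fkbp5, Hsp90aa1 and the reference gene Actb. The intervals of Nr3c1 and Nr3c2 lie below zero and those of Fkbp4 and Stip1 above it, while those of the other 6 of the 10 genes include zero.

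The partners of these genes were examined for comparison. Fkbp5 encodes FKBP51, the co-chaperone that keeps the receptor at low affinity and whose gene is itself induced by glucocorticoids. It was at 132.2 ± 7.29 CPM in saline rats and 151.2 ± 14.6 CPM in METH rats (SD, n = 4 each), with every METH rat above every saline rat. Fkbp5 had a log2 fold change of 0.19 (SE 0.08) and an FDR of 0.422 in the edgeR quasi-likelihood test. The log2 ratio of Fkbp5 to Fkbp4 within a rat was -0.82 ± 0.03 in saline rats and -0.93 ± 0.13 in METH rats. METH 2 and METH 4 lay below the saline range at -1.02 and -1.06, METH 3 just below it at -0.88, and METH 1 just above it at -0.78. This difference of -0.12 did not pass the exact permutation test (two-sided p = 0.171, 0.343 adjusted over the 4 ratios). With 1 rat left out the difference lay between -0.17 without METH 1 (exact permutation p = 0.0286, two-sided, unadjusted) and -0.07 without METH 4 (exact permutation p = 0.286). Fewer labellings exist with 1 rat left out, and 0.0286 is the smallest p that they allow. The size of the difference therefore depended on single METH rats.

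Hsp90aa1, the stress-inducible Hsp90 alpha gene, was at 14.9 ± 2.87 CPM in saline rats and 15.4 ± 1.07 CPM in METH rats. Its log2 fold change was 0.04 (SE 0.14), with an FDR of 0.936 in the edgeR quasi-likelihood test. Hsp90aa1 had 218 to 379 counts per rat. Reads that fit near-identical copies could be split or dropped in counting, so the Hsp90aa1 and Hsp90ab1 counts are uncertain to that extent. The log2 ratio of Hsp90aa1 to Hsp90ab1 was -7.13 ± 0.21 in saline rats and -7.15 ± 0.09 in METH rats (difference -0.02, exact permutation test, two-sided p = 0.886). The reference gene Actb, used for normalization in the qRT-PCR of the study, was at 1525 ± 78.4 and 1545 ± 22.2 CPM, a log2 fold change of 0.02 (SE 0.06).

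All 3 coregulator genes had a lower mean in METH rats, and the groups overlapped for each of them. Ncoa1 encodes SRC-1, a p160 coactivator that bridges the receptor to histone acetyltransferases. Its levels were 146.7, 145.8, 173.6 and 148.8 CPM in the saline rats and 133.6, 150.3, 125.5 and 133.5 CPM in the METH rats. The saline rats lay close together apart from saline 3, and METH 2 was the one METH rat within the saline range. Ncoa1 had a log2 fold change of -0.18 (SE 0.08, 95% interval -0.36 to 0.00), with an unadjusted p of 0.0507 and an FDR of 0.449 in the edgeR quasi-likelihood test (exact permutation p = 0.114, two-sided). The log2 fold change was -0.14 without METH 3, -0.12 without saline 3 and -0.23 without METH 2.

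Ncoa2 encodes GRIP1, the p160 family member that acts with the glucocorticoid receptor both as a coactivator and, at some sites, as a corepressor. It was at 22.5, 28.5, 41.1 and 34.4 CPM in the saline rats and at 23.3, 35.6, 20.3 and 31.1 CPM in the METH rats. The spread within each group was wide (a coefficient of variation of 25.1% in saline and 25.4% in METH rats, against 4.11% from counting alone). The log2 fold change was -0.20 (SE 0.19, 95% interval -0.61 to 0.22), with an FDR of 0.723 in the edgeR quasi-likelihood test. It was -0.05 without saline 3, -0.08 without METH 3, -0.12 without METH 1, -0.33 without saline 1 and -0.34 without METH 2.

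Ncor1 encodes the nuclear receptor corepressor NCoR, which holds histone deacetylase 3 at receptor-bound genes. It was at 124.6, 128.0, 150.1 and 135.8 CPM in the saline rats and at 120.7, 140.2, 111.7 and 132.3 CPM in the METH rats. The groups overlapped, with saline 3 the highest and METH 3 the lowest rat. The log2 fold change was -0.09 (SE 0.09), with an FDR of 0.717 in the edgeR quasi-likelihood test, and it was -0.04 without saline 3 or METH 3 and -0.15 without METH 2. The log2 ratio of Ncor1 to Ncoa1 was -0.19 ± 0.04 in saline rats and -0.11 ± 0.07 in METH rats (difference 0.08, exact permutation test, two-sided p = 0.0857, and 0.343 adjusted over the 4 ratios).

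**Figure D4:**
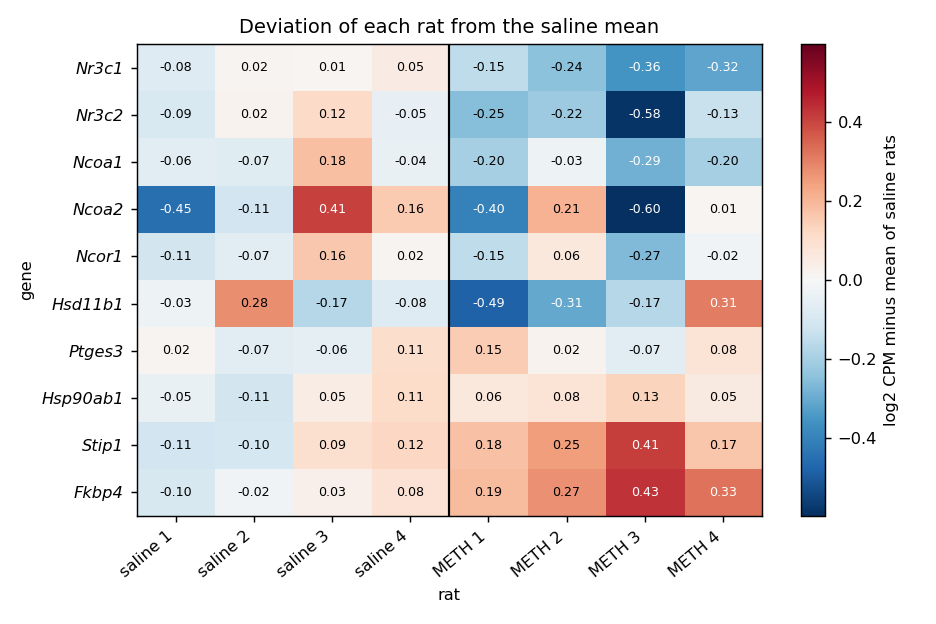
Deviation of each rat (columns) from the mean of the saline rats for each of the 10 genes (rows), in log2 CPM; the colors and the printed numbers give the same value. In the METH columns Nr3c1 and Nr3c2 are below zero and Fkbp4 and Stip1 above zero in each rat, and METH 3 has the most extreme value for 9 of the 10 genes if the highest or the lowest of the 8 rats is counted.

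The rats were then compared across the members. METH 3 was the lowest of the 8 rats for 6 members (Nr3c1, Nr3c2, Ptges3, Ncoa1, Ncoa2 and Ncor1) and the highest for 3 (Fkbp4, Hsp90ab1 and Stip1), with Hsd11b1 the one exception. Saline 3 was the highest rat for 4 members (Nr3c2, Ncoa1, Ncoa2 and Ncor1). METH 3 also stood apart in library composition and had the highest summed level of striatal neuron markers, as given above, and the part of these in the values of METH 3 was not tested. Without METH 3 the same 4 members had an unadjusted p below 0.05, and the median log2 fold change of the 10 was -0.06 in place of -0.12. It was -0.06 without METH 1 and -0.04 without saline 3 as well, so this shift was not particular to METH 3.

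After the group means were removed, some of the members varied together over the 8 rats. Among 3 of the chaperone genes the correlation (Pearson) was 0.89 between Hsp90ab1 and Stip1, 0.82 between Fkbp4 and Stip1 and 0.64 between Fkbp4 and Hsp90ab1. Among the coregulator genes the correlation (Pearson) was 0.97 between Ncoa2 and Ncor1, 0.90 between Ncoa1 and Ncor1 and 0.82 between Ncoa1 and Ncoa2. Nr3c2 varied with the coregulators (0.80 with Ncor1, 0.74 with Ncoa2 and 0.63 with Ncoa1), and less with Nr3c1 (0.45). The correlations of Ptges3 with these 3 genes were lower (-0.39 with Fkbp4, -0.27 with Stip1 and 0.16 with Hsp90ab1). The highest correlation of Nr3c1 was 0.57 with Ptges3, and that of Hsd11b1 was 0.25 with Fkbp4. The largest in size for Hsd11b1 was negative, -0.51 with Nr3c1. These are descriptions of 8 points that share library, depth and scaling, and METH 3 and saline 3 are at the ends for several of the genes.

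The genes whose levels most resembled those of Nr3c1 over the 8 rats, after removal of group means, were Eps15 (Pearson r = 0.98, Spearman rho = 0.98), Stag2 (0.98 and 0.98), March5 (0.97 and 0.83), Stt3a (0.97 and 0.93) and Rbbp4 (0.97 and 1.00). They were picked as the highest of 10976 genes with a mean log2 CPM above 1, of which 35 had a Pearson correlation above 0.9. Their log2 fold changes lay between -0.33 for Eps15 and -0.02 for Rbbp4, and none was called.

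Around the members, a wider list of chaperones of the receptor complex was followed. Of 18 genes listed, 17 were tested (Ipo8 was not matched by symbol), 15 had a higher and 2 a lower mean in METH rats, and none was called (1 by the DESeq2 Wald test), beside the 0.516% called among all genes tested. At an unadjusted p below 0.05, 5 were higher (Ahsa1, Dnaja1, Dnajb1, Fkbp5 and Hspa8) and none was lower, beside 6.26% and 4.88% of all genes tested. This list was chosen with earlier results of these data known, so the counts are not an independent test. The median log2 fold change of the list was 0.06. Dnajb1, an Hsp40 co-chaperone that delivers clients to Hsp70, was at 91.2 ± 5.39 CPM in saline rats and 129.3 ± 21.6 CPM in METH rats (SD, n = 4 each). Its log2 fold change of 0.50 (SE 0.11) had an FDR of 0.0624 by the edgeR quasi-likelihood test, and the groups did not overlap. Hspa8, the constitutive Hsp70 that loads the receptor before HOP, had a log2 fold change of 0.23 (SE 0.08, FDR = 0.307 by the same edgeR test), also without overlap. At the other end, Kpnb1, an importin, had -0.14 and Sugt1, an Hsp90 adaptor, -0.00. Only Dnajb1 and Hspa8 of this list kept an unadjusted p below 0.05 when counts were scaled by total counts or by Actb, and both did so in each fit with 1 rat left out. The count of higher genes was 5 without saline 4, 4 without saline 3, 2 without saline 2 and 3 in the other such fits. Without METH 2, Kpnb1 was lower at an unadjusted p below 0.05. Dnajb1 was called without METH 4 (FDR = 0.0334 by the edgeR quasi-likelihood test).

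Other coactivators and chromatin remodelers were close to balance. Of 18 listed, 14 were tested (Ncoa3, Ncoa7, Ep300 and Kat2b were not matched by symbol). Of these, 6 had a higher and 8 a lower mean, and the median log2 fold change was -0.01. None was called, beside the 0.516% called among all genes tested. Crebbp, the histone acetyltransferase CBP, was the one gene with an unadjusted p below 0.05, beside 6.26% of all genes tested higher by that criterion. It was at 57.0 ± 2.29 CPM in saline rats and 67.5 ± 8.19 CPM in METH rats with no overlap. Crebbp had a log2 fold change of 0.24 (SE 0.09), with an FDR of 0.358 in the edgeR quasi-likelihood test. Smarca4, the ATPase of the SWI/SNF remodeler, followed with 0.05. The lowest were Ppargc1a, the coactivator PGC-1 alpha, with -0.37 (SE 0.17), and Med1, a Mediator subunit that contacts nuclear receptors, with -0.24 (SE 0.12). Without METH 3 or without saline 2 no gene of this list had an unadjusted p below 0.05. Med1 and Ppargc1a reached it without METH 2 and without saline 1.

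Of 10 corepressor genes, 9 were tested (Lcor was not matched by symbol). Of these, 3 had a higher and 6 a lower mean, and the median was -0.04. None was called, beside the 0.516% called among all genes tested. At an unadjusted p below 0.05, Tbl1xr1 alone was lower and none was higher, beside 4.88% and 6.26% of all genes tested. Tbl1xr1, which exchanges corepressors for coactivators as part of the NCoR complex, was at 130.4 ± 6.41 CPM in saline rats and 110.1 ± 14.1 CPM in METH rats. Its log2 fold change was -0.24 (SE 0.09, FDR = 0.357 by the edgeR quasi-likelihood test), and its unadjusted p was not below 0.05 without METH 3 or without saline 4. Hdac1, a histone deacetylase, had -0.25 (SE 0.12), and Gps2, another subunit of the NCoR complex, had 0.08 (SE 0.09).

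For the supply of ligand, 10 genes were listed and 5 were tested. Of these, 2 had a higher and 3 a lower mean, and none was called, beside the 0.516% called among all genes tested. At an unadjusted p below 0.05, 2 (H6pd and Abcb1a) were lower and none was higher, beside 4.88% and 6.26% of all genes tested. The median log2 fold change was -0.29. That median is the value of a single gene, Akr1c14, with 6 to 27 counts per rat (SE 0.55), and it ranged from -0.0186 without saline 1 to -0.44 without saline 3. H6pd, the enzyme of the endoplasmic reticulum that makes the NADPH used by Hsd11b1, was at 9.22 ± 0.894 CPM in saline rats and 6.68 ± 0.788 CPM in METH rats. Every METH rat lay below every saline rat, as was so for 2.65% of all genes tested. For H6pd the log2 fold change was -0.46 (SE 0.16), with an FDR of 0.296 by the edgeR quasi-likelihood test. Abcb1a, which encodes the P-glycoprotein pump of brain endothelium that exports corticosteroids, was at 61.8 ± 9.54 and 48.5 ± 7.05 CPM, a log2 fold change of -0.35 (SE 0.13, FDR = 0.324 by the same edgeR test). Star and Srd5a1 had the highest values, 0.44 (SE 0.50) and 0.09 (SE 0.10), Star with only 8 to 21 counts per rat. Without saline 2, H6pd alone of the pair had an unadjusted p below 0.05. Endothelial markers also had lower means, all 5 of them in METH rats, with a median log2 fold change of -0.21. Of these, 2 (Flt1 and Tek) were lower at an unadjusted p below 0.05, beside 4.88% of all genes tested, and none was called. The 5 markers summed to 381.6 to 550.1 CPM in saline rats and 381.1 to 409.6 CPM in METH rats. The part of endothelial content in the value of Abcb1a was not tested. Transcripts for steroid synthesis and for the inactivating enzyme were near the limit of detection, with 0 to 12 counts per rat for Hsd11b2, 0 to 4 for Cyp11a1, 0 for Cyp11b1 and 0 to 1 for Cyp21a1.

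Among genes of other steroid receptors, Pgr, the progesterone receptor gene, had a log2 fold change of -0.00 (SE 0.25, 95% interval -0.53 to 0.53). The estrogen receptor genes Esr1 and Esr2, with at most 12 and 16 counts per rat, did not pass the filter.

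Transcripts that activated receptors are known to induce were followed as a further list outside the 10 genes. Receptor activity was not measured in these libraries, and its part in the levels of these transcripts was not tested. Of 20 listed, 18 were tested (Plin4 and Mt1 were not matched by symbol), 16 had a higher and 2 a lower mean in METH rats, and the median log2 fold change was 0.19, beside -0.01 for all genes tested. Among them 2 were called, both higher, against 0.449% called higher among all genes tested, and 8 were higher at an unadjusted p below 0.05, against 6.26%. The list was chosen with earlier results of these data known, so these counts are not an independent test. Per1, a circadian clock gene with a glucocorticoid response element, rose from 88.3 ± 8.04 to 147.4 ± 14.1 CPM (SD, n = 4 each), a log2 fold change of 0.74 (SE 0.09, FDR = 0.0015 by the edgeR quasi-likelihood test). Cdkn1a, the cell cycle inhibitor p21, rose from 10.1 ± 0.992 to 19.0 ± 3.77 CPM, a log2 fold change of 0.91 (SE 0.15, FDR = 0.0133 by the same edgeR test), and without saline 2 its FDR was 0.0636, so that call was lost. Dusp1, a MAP kinase phosphatase, had 0.88 (SE 0.24, FDR = 0.183 in the edgeR quasi-likelihood test). The lowest were Lcn2, lipocalin 2, with -0.70 (SE 0.36) and Zbtb16, a zinc finger repressor, with -0.04 (SE 0.50). Fkbp5 belongs to this list and to that of the chaperones. With 1 rat left out, 1 gene of the list was called without saline 2, 3 without saline 1, 4 without METH 2 and 2 in each other fit, and 7 to 10 were higher at an unadjusted p below 0.05.

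**Figure D5:**
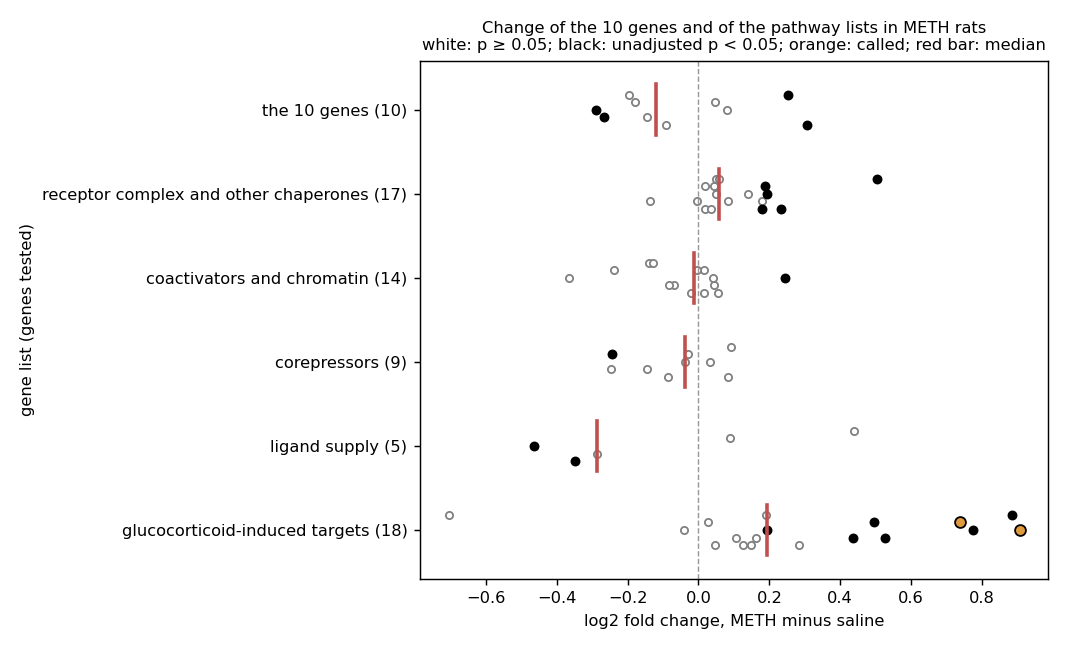
Log2 fold change (METH minus saline, x axis) of each gene tested, for the 10 genes and 5 pathway lists (y axis, number of genes tested in parentheses). White points have an unadjusted p of 0.05 or above, black points an unadjusted p below 0.05, orange points are called, and red bars are medians. The medians are -0.12 for the 10 genes, 0.06 for chaperones and 0.19 for glucocorticoid-induced targets, where both called genes lie.

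Of microglial markers, 5 of 6 had a lower mean in METH rats with a median log2 fold change of -0.22. Cx3cr1 was called (-0.73, FDR = 0.0408 by the edgeR quasi-likelihood test), beside 0.0666% called lower among all genes tested. That call was made in only 2 of 8 fits with 1 rat left out (without METH 2 and without saline 1). The 6 markers summed to 300.7 to 354.2 CPM in saline rats and 261.2 to 319.5 CPM in METH rats. Microglia and endothelial cells both carry the glucocorticoid receptor, and the part of their markers in the lower Nr3c1 was not tested. Astrocyte and oligodendrocyte markers had medians of -0.07 and -0.08, with no gene at an unadjusted p below 0.05. Of 5 pericyte, smooth muscle and meningeal markers none was called, and the median was -0.01. Acta2 was higher (0.56) and Pdgfrb lower (-0.28) at an unadjusted p below 0.05, beside 6.26% and 4.88% of all genes tested. Of 5 choroid plexus markers 2 were tested, Clic6 (0.79, unadjusted p below 0.05) and Folr1 (0.45), neither called, and Ttr had 28 counts in METH 1 and 36 in METH 3 against 0 to 4 in the other rats. The part of these markers in the members' values was not tested.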

How the data were processed

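Poly(A) RNA libraries from the striatum of 4 saline and 4 METH rats were analysed, with groups and rat numbers taken from the sample labels. The authors used Cutadapt 1.18 to trim paired-end reads, STAR 2.7.0e to align them to rn6, and featureCounts of Subread 1.6.4 to count them per gene. The deposited values are raw counts, 1 column per rat. The annotation, strand setting and handling of reads mapping to several genes are not given in the sources used here, so near-identical or overlapping genes are uncertain.

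From the counts, genes were filtered with filterByExpr (minimum count 10), scaled by TMM and tested with the quasi-likelihood test of edgeR 4.0.16 in R 4.3.3. The SE is the log2 fold change divided by the square root of F, and intervals are at 95%. Log2 CPM used a prior count of 2. Single genes and ratios were compared by exact permutation over 70 labellings, and ratios over fewer with 1 rat left out. Alternatives used limma 3.58.1, DESeq2 1.42.0, other scalings, filters and thresholds, each rat left out, and the rat number as a block. Levels of different genes were not compared, since gene lengths in rn6 were not used here. Total counts of 18135939 to 21211920 per rat set the precision, and counting error is only part of the spread between rats.

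The genes named are the 10 members, the called and the 2 highest and 2 lowest genes of each list, the partner gene of each ratio, Actb, and the 5 genes most like Nr3c1. Other genes were named because a count was small, and some genes that the rule names are not reported here. The members and lists were chosen with earlier results of these data known. On simulated counts for 11925 genes, the fit called 169 of 200 genes whose log2 fold change was set to 1 (84.5%), all in the right direction, and 4 that were not changed. No member had a log2 fold change above 0.31 in size. The simulation does not tell how often changes of that size would be called.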

Additional observations from a re-analysis of the deposited data

Results flagged for a closer look

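The level of Ncoa1 in saline 3, 173.6 CPM, stood apart from the other saline rats, at 145.8 to 148.8 CPM. The gap to the nearest of them was 0.886 of the range of the group, more than Dixon's 95% critical value for 4 samples. In all, 28 groups of 4 rats (10 genes and 4 ratios, in each group) were examined in this way, and chance alone marks about 1 in 20. Saline 3 was also the highest of the 8 rats for Nr3c2, Ncoa2 and Ncor1.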

How the results depend on the processing

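Across 17 other fits (9 with all rats and 8 with 1 rat left out), no member changed sign, and Nr3c1, Nr3c2, Fkbp4 and Stip1 had an unadjusted p below 0.05 in each. Against 62 genes called in the quasi-likelihood test (54 higher, 8 lower, 0 members), the DESeq2 Wald test called 191 genes (141 higher, 50 lower) and 2 members, Nr3c1 (FDR = 0.0341) and Fkbp4 (FDR = 0.0093). The likelihood ratio test of edgeR called 170 genes (131 higher, 39 lower) and 1 member, Fkbp4 (FDR = 0.0289). With every gene that had at least 1 count, 13 genes were called lower. With 1 rat left out, 37 to 70 genes were called, 35 to 66 higher and 2 to 9 lower, and 0 members in each fit, with the fewest calls without saline 2. The differences in the log2 ratio ranged from -0.100 to 0.0380 for Nr3c2 to Nr3c1 and from -0.104 to 0.0683 for Hsp90aa1 to Hsp90ab1 with 1 rat left out. The first turned positive without saline 3 (0.0057) or METH 3 (0.0380), and the second without saline 3 (0.0683) or METH 4 (0.0126). The cause of these changes was not tested, beyond the smaller number of rats. Total-count scaling moved the median log2 fold change of all genes from -0.01 to -0.04.

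The labels do not say that rats of equal number form a pair. Deviations of same-numbered rats correlated at 0.02, -0.22, -0.29 and 0.02, and 1 of 8 rats correlated best with its own number. Low correlations do not show the absence of a batch shared by number. With the rat number as a block, 37 genes were called (35 higher, 2 lower) and 0 members, and the FDR was 0.499 for Nr3c1 and 0.318 for Fkbp4 (edgeR quasi-likelihood test). The 95% intervals limit what could be seen, from -0.06 to 0.22 (log2) for Hsp90ab1, the most precise member, to -0.61 to 0.22 for Ncoa2, the least precise.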
